A study of Mus musculus with 6 samples.

Results

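The receptors examined here are the cell-surface serine/threonine kinases through which activins, bone morphogenetic proteins (BMPs) and TGF-β signal. They are *Tgfbr1*, *Acvr1b*, *Acvr1c*, *Acvr1*, *Acvrl1* and *Bmpr1a*, which are type I receptors, and *Tgfbr2*, *Acvr2a*, *Acvr2b* and *Bmpr2*, which are type II receptors. The genes were taken by symbol, each through a probe set that the platform's annotation pairs with that symbol alone. All 10 had exactly 1 such probe set, out of 19938 genes that the annotation gives such a probe set, and 23410 probe sets were tested in all. Expression was measured in bone marrow-derived macrophages (BMMs), which the methods describe as grown with M-CSF from tibial marrow. The sample labels give 9-week-old mice, while the methods give a range of ages up to 9 weeks. The methods describe the study's mice as female C57BL. BMMs cultured for 24 h with 100 ng per ml M-CSF, 50 ng per ml RANKL (the cytokine that turns them into osteoclasts) and 100 ng per ml recombinant GDF11 (rGDF11) were compared with BMMs given the same M-CSF and RANKL with vehicle. Each group had 3 samples, called biological replicates, with 1 Affymetrix array each. Because no source used here says whether these were separate mice, the p-values measure only the spread between these samples, which may be technical. Values are deposited log2 expression values normalized by the robust multichip average (RMA), where a difference of 1 is a doubling.

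Ligands of this family bring type II and type I receptors together in 1 complex. The type II kinase, which is active by itself, phosphorylates the type I kinase, and the type I kinase then phosphorylates the Smad proteins that enter the nucleus. The type I receptor therefore sets which Smads are used. The products of *Tgfbr1* (ALK5), *Acvr1b* (ALK4) and *Acvr1c* (ALK7) act on Smad2 and Smad3, and those of *Acvr1* (ALK2), *Acvrl1* (ALK1) and *Bmpr1a* (ALK3) act mainly on Smad1, Smad5 and Smad9. GDF11 is known to bind the activin type II receptors encoded by *Acvr2a* and *Acvr2b* and to signal through ALK4, ALK5 and ALK7.

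*Tgfbr1* and *Acvr1b* are type I receptor genes of the same Smad branch whose expression moved in opposite directions with rGDF11, and the bases upstream of their starts are shown for that reason. The RefSeq windows (GRCm38.p6) cover the 250 bases before the annotated start, on the plus strand in both genes, at chr4:47352972-47353221 for *Tgfbr1* and at chr15:101173822-101174071 for *Acvr1b*, taking the most upstream start where a gene has several. Capitals mark GC boxes (GGGCGG, or CCGCCC on the other strand), which occurred 2 times upstream of *Tgfbr1* and 4 times upstream of *Acvr1b*, overlapping matches counted separately.
Tgfbr1: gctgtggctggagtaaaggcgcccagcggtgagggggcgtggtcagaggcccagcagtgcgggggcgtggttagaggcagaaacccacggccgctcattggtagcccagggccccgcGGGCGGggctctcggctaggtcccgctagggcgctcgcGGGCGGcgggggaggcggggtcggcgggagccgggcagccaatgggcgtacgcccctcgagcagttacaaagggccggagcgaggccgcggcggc
Acvr1b: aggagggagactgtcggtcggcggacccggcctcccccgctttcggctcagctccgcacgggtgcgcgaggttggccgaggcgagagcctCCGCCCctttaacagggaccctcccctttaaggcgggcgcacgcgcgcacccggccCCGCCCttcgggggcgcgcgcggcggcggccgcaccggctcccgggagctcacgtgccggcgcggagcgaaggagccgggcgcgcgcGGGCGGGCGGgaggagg
The windows are rich in G and C, with 74.8% for *Tgfbr1* and 78.8% for *Acvr1b*. Of the 10 receptors, 9 had a window in the RefSeq table, all but *Acvrl1*. A GC box was present in 8 of the 9, all but *Tgfbr2*, and in 32.7% of all 32851 windows of that length. The short Smad motif CAGAC (or GTCTG) was present in 3 of 9, upstream of *Tgfbr2*, *Acvr2a* and *Acvr2b*, and in 42.2% of all windows. The Smad palindrome GTCTAGAC and the AP-1 site TGACTCA (or TGAGTCA) were present in 0 of 9, against 0.167% of all windows for the palindrome and 4.46% for the AP-1 site. GGCGCC was present in 3 of 9 (*Tgfbr1*, *Bmpr1a* and *Bmpr2*; 9.59% of all windows) and TATAAA (or TTTATA) in 0 of 9 (12.4% of all windows). These are matches of letters, and binding was not measured on the arrays.

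With rGDF11 the receptor genes split evenly, 3 rising and 3 falling, while 4 missed the threshold. *Tgfbr1*, *Acvr1* and *Bmpr2* were higher and *Acvrl1*, *Bmpr1a* and *Acvr1b* were lower. These words are used for genes that passed limma's moderated test at an adjusted p under 0.05, with the Benjamini-Hochberg adjustment taken over all tested probe sets. In bulk RNA, fewer cells of a type and less RNA per cell cannot be told apart. By that rule 7.31% of all tested probe sets were higher and 8.64% lower, 16.0% in either direction. The first share is 1712 probe sets, which became 1129 to 1357 with any 1 array left out, fewest without the first rGDF11 replicate. The second is 2023, which became 1415 to 1725, fewest without the third RANKL replicate. The median log2 fold change (RANKL + rGDF11 over RANKL) was 0.020 over the 10 receptors and 0.024 over all tested probe sets. The arrays of both groups did not overlap for the same 6 receptors, as for 32.9% of tested probe sets. The methods' threshold, a fold change of 1.5 with an unadjusted p under 0.01, was applied to limma's p, so only the cutoffs are those of the methods. There *Tgfbr1* was higher and *Acvrl1* lower, and the other 4 changes were too small to count. That threshold takes 2.06% of tested probe sets as higher and 2.96% as lower.

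**Figure D1:**
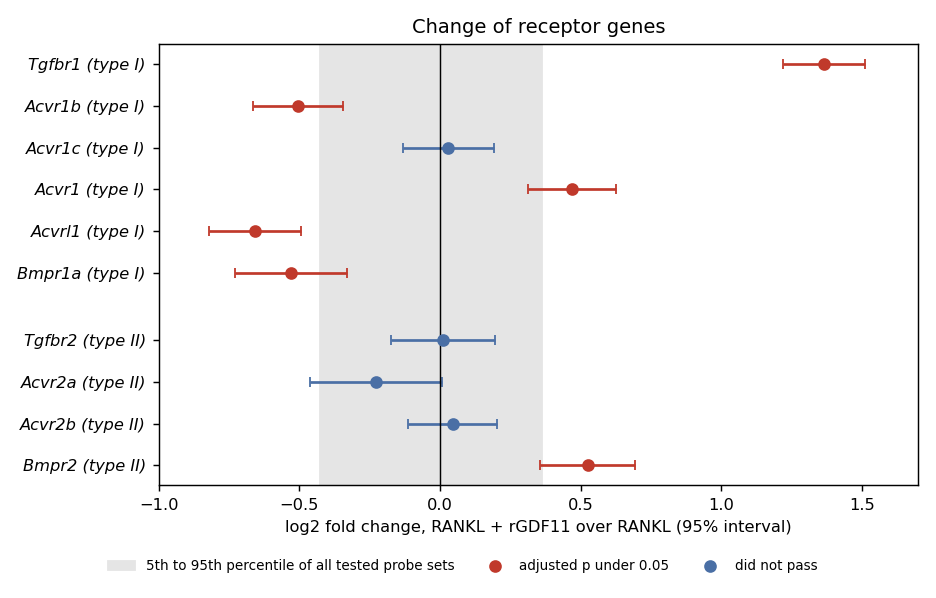
Change of the 10 receptor genes with rGDF11 (horizontal axis, log2 fold change of RANKL + rGDF11 over RANKL) with its 95% interval from limma, 3 arrays per group; the grey band spans the 5th to 95th percentile of all tested probe sets, −0.43 to 0.36. *Tgfbr1* stands furthest out at 1.36, 5 further genes passed the test outside the band on either side, and 4 genes in blue did not pass.

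*Tgfbr1*, which encodes the TGF-β type I receptor ALK5, had the largest change of the 10. Its log2 values (probe set 10504817) were 11.14, 11.19 and 11.15 in BMMs given rGDF11, against 9.83, 9.83 and 9.72 in BMMs given RANKL alone. Every rGDF11 array lay more than 1 log2 unit above every RANKL array. The means were 11.16 ± 0.03 and 9.79 ± 0.07 (SD, n = 3 arrays per group), a 2.57-fold rise (log2 fold change 1.36, 95% interval 1.22 to 1.51; limma, adjusted p = 1.47e-05). Only 0.816% of tested probe sets had a larger absolute change. *Acvr1b* (probe set 10427015), which encodes the activin type I receptor ALK4, moved the other way. It read 7.81, 7.64 and 7.66 with rGDF11, against 8.17, 8.22 and 8.23 with RANKL alone. All rGDF11 arrays were below all RANKL arrays, with the first rGDF11 replicate nearest to them. The fall was 1.42-fold (log2 fold change −0.50, 95% interval −0.66 to −0.35; limma, adjusted p = 0.00194). *Acvr1c* (probe set 10482814), which encodes the nodal and activin receptor ALK7, read 4.61, 4.44 and 4.51 with rGDF11, against 4.54, 4.44 and 4.49 with RANKL alone. Its arrays overlapped, and the log2 fold change was 0.030 (95% interval −0.13 to 0.19; limma, adjusted p = 0.841). All of these values lie under 4.69, the lower quartile of the tested probe sets, and the table holds no detection calls.

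**Figure D2:**
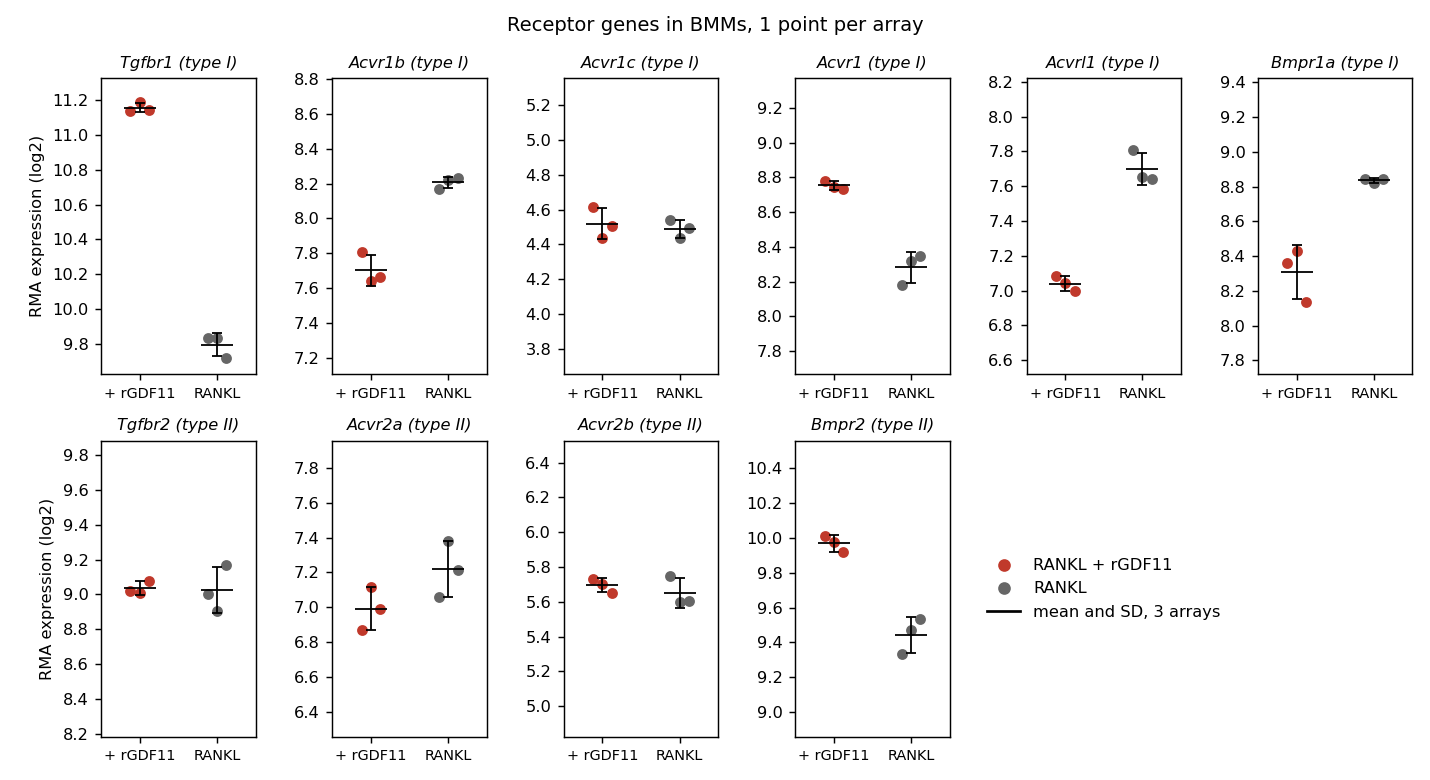
RMA expression (log2, vertical axes of equal span) of the 6 type I genes, upper row, and the 4 type II genes, lower row, in BMMs given RANKL and rGDF11 (red, left) or RANKL (grey, right). Each point is an array, with bars for the mean and SD (n = 3); the groups are apart for *Tgfbr1*, *Acvr1b*, *Acvr1*, *Acvrl1*, *Bmpr1a* and *Bmpr2* and overlap for the other 4 genes.

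Type I receptors of the BMP branch were also divided. *Acvr1* (probe set 10482824), which encodes the BMP and activin receptor ALK2, read 8.78, 8.75 and 8.73 with rGDF11, against 8.18, 8.32 and 8.35 with RANKL alone. The groups were apart, and the rGDF11 arrays lay close together (SD 0.02, against 0.09 with RANKL alone). The rise was 1.39-fold (log2 fold change 0.47, 95% interval 0.31 to 0.63; limma, adjusted p = 0.00261). *Acvrl1* (probe set 10426999) encodes ALK1, a receptor for BMP9 and BMP10 best known from endothelial cells. It read 7.084, 7.041 and 6.996 with rGDF11, against 7.806, 7.651 and 7.639 with RANKL alone, and no arrays overlapped. It fell 1.58-fold (log2 fold change −0.66, 95% interval −0.82 to −0.50; limma, adjusted p = 0.000608), the largest fall of the 10. *Bmpr1a* (probe set 10418927), which encodes the BMP type I receptor ALK3, read 8.36, 8.43 and 8.13 with rGDF11, against 8.84, 8.82 and 8.84 with RANKL alone. Its rGDF11 arrays were all lower but the most spread of any receptor group that changed (SD 0.15, against 0.02 with RANKL alone), with the third replicate lowest. The fall was 1.44-fold (log2 fold change −0.53, 95% interval −0.73 to −0.33; limma, adjusted p = 0.00466), and its log2 fold change was −0.44 without that replicate. On the chromosome, *Acvrl1* and *Acvr1b*, which both fell, are next to each other among protein-coding genes of chromosome 15. *Acvr1c* and *Acvr1* are likewise neighbours on chromosome 2, where *Acvr1* rose and *Acvr1c* did not pass.

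Of the type II receptors, *Bmpr2* rose and the other 3 did not pass the test. *Bmpr2* (probe set 10346651), the BMP type II receptor, read 10.01, 9.98 and 9.92 with rGDF11, against 9.33, 9.47 and 9.53 with RANKL alone. The groups were apart, and the rise was 1.44-fold (log2 fold change 0.52, 95% interval 0.35 to 0.69; limma, adjusted p = 0.00224). *Tgfbr2* (probe set 10597518), the TGF-β type II receptor that pairs with ALK5, read 9.02, 9.01 and 9.08 with rGDF11, against 9.01, 8.90 and 9.17 with RANKL alone. The rGDF11 arrays lay within the range of the RANKL arrays. Its log2 fold change was 0.011 (95% interval −0.18 to 0.20; limma, adjusted p = 0.955). *Acvr2a* (probe set 10471953), an activin type II receptor, read 6.87, 7.11 and 6.99 with rGDF11, against 7.06, 7.38 and 7.21 with RANKL alone. These overlap, and its log2 fold change was −0.23, with a 95% interval from −0.46 to 0.0060 (adjusted p = 0.194 by limma). *Acvr2b* (probe set 10590169), the other activin type II receptor, read 5.73, 5.70 and 5.65 with rGDF11, against 5.75, 5.60 and 5.61 with RANKL alone. The log2 fold change was 0.045 (95% interval −0.11 to 0.20; limma, adjusted p = 0.744). The interval of *Acvr2a* still holds a fall nearly as large as that of *Acvr1b*, and those of *Tgfbr2* and *Acvr2b* reach up to about 0.20.

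Set against each other, 5 of 6 type I genes changed (2 higher, 3 lower) and 1 of 4 type II genes did (higher). Of all tested probe sets 16.0% changed, 7.31% higher and 8.64% lower. Whether the types differ in these counts was not tested. The median log2 fold change was −0.24 over the type I genes, between −0.66 and 1.36, and 0.028 over the type II genes, between −0.23 and 0.52. The type I median was −0.50 without *Acvr1c*, which a filter on dim probe sets removed, and the type II median was −0.016 without the second RANKL replicate. The same filter also removed *Acvr2b*, and the type II median was then 0.011. How far each type I gene changed beyond each type II gene was read within arrays, as the difference of their log2 values in the same sample. The size of such a difference also depends on the probes, so only its change between the groups is read. Over all 24 pairs of a type I with a type II gene, this difference was higher in every rGDF11 array for 7 pairs, lower in every rGDF11 array for 11, and overlapped between the groups for 6. Over every pair of the 19938 genes, 36.0% were apart in this way, and the 24 pairs reuse the same 10 genes, so they are not independent. The *Tgfbr1* minus *Tgfbr2* difference was 2.12, 2.18 and 2.07 with rGDF11, against 0.83, 0.93 and 0.55 with RANKL alone, a change of 1.35 (standard error 0.12). *Acvr1b* minus *Acvr2a* was 0.94, 0.52 and 0.68 with rGDF11, against 1.11, 0.84 and 1.02 with RANKL alone, a change of −0.28 (standard error 0.14) with overlapping groups. Against the other activin type II gene the groups were apart. *Acvr1b* minus *Acvr2b* changed by −0.55 (standard error 0.08), from differences of 2.07, 1.93 and 2.01 with rGDF11 and of 2.42, 2.62 and 2.63 with RANKL alone. *Bmpr1a* minus *Bmpr2* changed by −1.05 (standard error 0.09) and *Acvrl1* minus *Bmpr2* by −1.18 (standard error 0.11), the lowest of the 24, and both were lower in all rGDF11 arrays. *Acvr1* and *Bmpr2*, both of which rose, differed in their change by −0.054 (standard error 0.02), with overlapping groups. The exact permutation test of 3 arrays against 3 cannot give a two-sided p below 0.1, so no pair passed (lowest adjusted p = 0.133 over the 24 pairs).

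**Figure D3:**
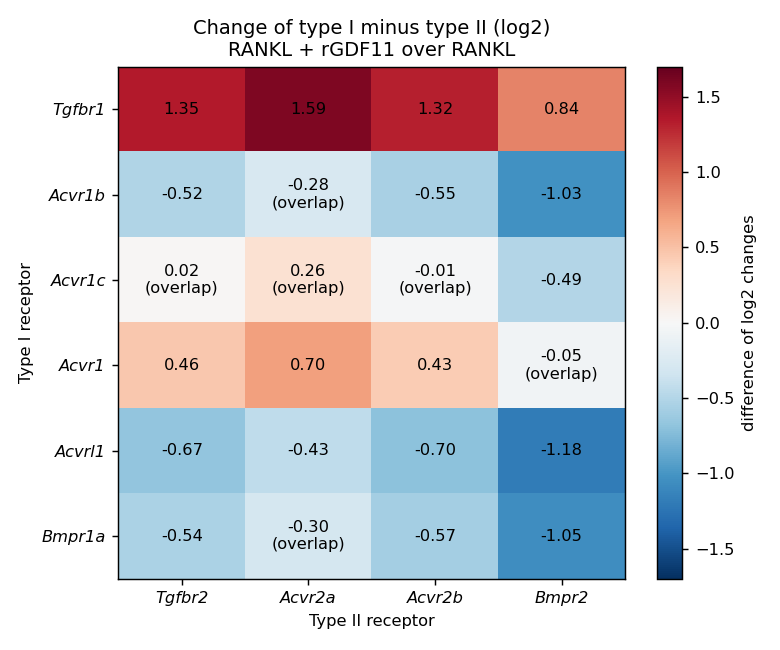
Change of each type I receptor gene (rows) minus that of each type II gene (columns), in log2 units, RANKL + rGDF11 over RANKL, as means of 3 arrays per group; red means that the log2 fold change of the type I gene was above that of the type II gene, and blue that it was below. The *Tgfbr1* row is red throughout, between 0.84 and 1.59, the *Acvrl1* row is blue throughout, and 6 squares whose arrays overlapped between the groups are marked.

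The rest of the pathway was read through gene lists drawn up by role. The remaining receptors of the family, *Bmpr1b* (log2 fold change 0.051; limma, adjusted p = 0.835) and *Amhr2*, the receptor of anti-Müllerian hormone (−0.023; limma, adjusted p = 0.922), did not pass, at log2 levels of 3.79 and 5.11 with rGDF11, against 3.74 and 5.13 with RANKL alone. Of 31 measured genes listed as ligands 4 rose, 2 fell and 25 did not pass, with a median log2 fold change of 0.048. Of the 31, 26 read below the median of the tested probe sets, and no detection calls show which were expressed. Over all tested probe sets 7.31% rose and 8.64% fell. The list includes *Bmp1*, which encodes a protease rather than a ligand and was among those that rose (0.35; limma, adjusted p = 0.00941). *Inhba*, the subunit of activin A, rose by 1.58 on the log2 scale and *Tgfb2* by 0.60. *Bmp2* fell by 1.17, to a mean of 4.44 with rGDF11, under the lower quartile of 4.69, and *Gdf3* fell by 0.63. The endogenous *Gdf11* transcript read 5.50, 5.29 and 5.67 with rGDF11, against 5.35, 5.31 and 5.55 with RANKL alone (limma, adjusted p = 0.704). *Mstn*, the related myostatin, differed by −0.048 on the log2 scale (adjusted p = 0.810 by limma). Its means were 3.61 with rGDF11 and 3.66 with RANKL alone, both under the lower quartile of the tested probe sets.

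Of 16 genes listed as co-receptors and pseudoreceptors 3 rose, 2 fell and 11 did not pass. In all, 16.0% of tested probe sets passed, 7.31% higher and 8.64% lower. Among the listed genes that did not pass is *Ltbr*, the lymphotoxin beta receptor, which is not a TGF-β co-receptor. *Cd109*, a membrane protein that binds TGF-β and restrains its signalling, read 9.48, 9.55 and 9.45 with rGDF11, against 7.83, 8.09 and 7.83 with RANKL alone, a 2.99-fold rise (limma, adjusted p = 2.97e-05). *Eng*, endoglin, the co-receptor that works with ALK1, read 7.71, 7.61 and 7.59 with rGDF11, against 8.95, 8.99 and 9.10 with RANKL alone, a 2.59-fold fall (limma, adjusted p = 2.26e-05). *Eng* and *Acvrl1*, its type I partner, were therefore both lower. The semaphorin receptors *Nrp1* and *Nrp2*, which can also bind TGF-β, went apart, with log2 fold changes of −1.10 and 0.36. Of 24 extracellular modulators of the ligands, a list of binding inhibitors and of proteins that hold or release latent TGF-β, 6 rose, 1 fell and 17 did not pass. Of these 24, 15 read below the median of the tested probe sets. *Tmeff1*, a membrane protein known to inhibit nodal signalling in frog embryos, rose 13.0-fold, and *Thbs1* (0.73), which can activate latent TGF-β, *Fstl1* (0.64) and *Ltbp1* (0.59), which holds latent TGF-β in the matrix, rose by the log2 amounts given.

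**Figure D4:**
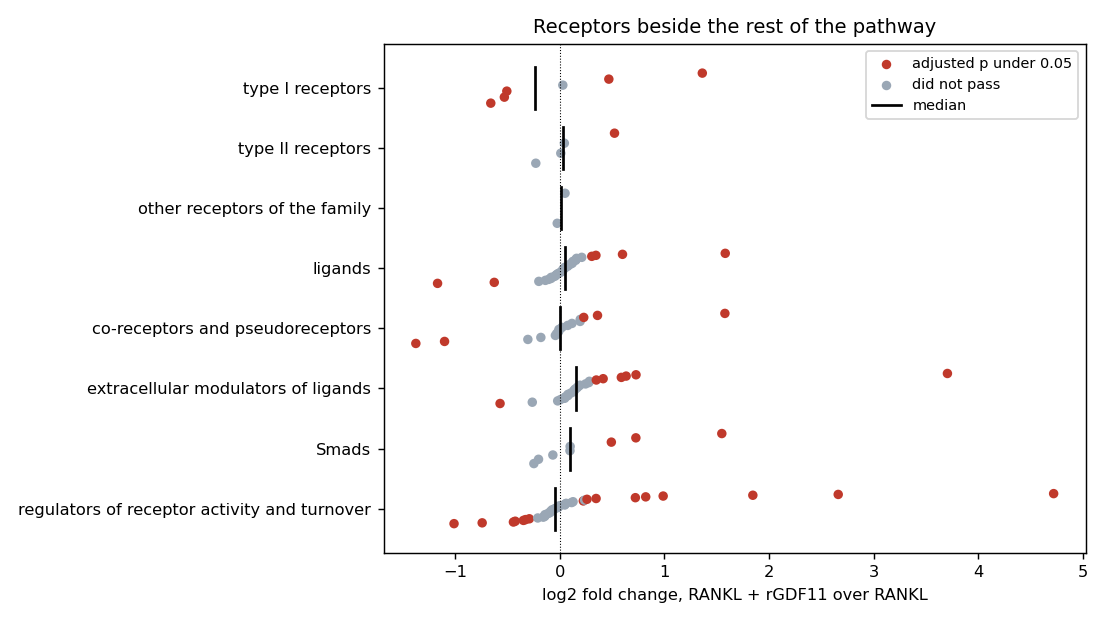
Change with rGDF11 (horizontal axis, log2 fold change of RANKL + rGDF11 over RANKL) of the receptors and of 6 other gene lists of the pathway, each point a gene measured on 3 arrays per group; red marks an adjusted p under 0.05 and black lines mark medians. The type I genes lie on both sides of 0, and the furthest points are *Pmepa1* at 4.72 and *Tmeff1* at 3.71.

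Of 8 Smads 3 rose and 5 did not pass, where 7.31% of all tested probe sets rose. *Smad5*, a substrate of the BMP type I receptors, rose by 0.73, and the inhibitory Smads *Smad7* and *Smad6*, which bind type I receptors and block them, by 1.55 and 0.49. The receptor substrates *Smad2* (−0.20), *Smad3* (0.10), *Smad1* (−0.25) and *Smad9* (0.10) and the shared partner *Smad4* (−0.065) did not pass limma's test, with adjusted p between 0.0839 and 0.655. Of 38 genes that regulate the receptors' activity or turnover, 9 rose, 7 fell and 22 did not pass. The share that passed among all tested probe sets was 16.0%, with 8.64% lower. *Pmepa1*, which keeps Smad2 and Smad3 from the receptor, rose by 4.72 (limma, adjusted p = 1.00e-06). *Cav1*, caveolin-1, a coat protein of the membrane pits through which TGF-β receptors are taken up and degraded, rose by 2.66. *Spsb1*, part of a ubiquitin ligase that acts on the TGF-β type II receptor, rose by 1.85, and *Wwp1*, a ubiquitin ligase that acts on ALK5 with Smad7, fell by 1.01. The median log2 fold change of this list was −0.045.

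Genes were ranked by how closely their 6 array values, centred on their own mean, followed those of the receptors with the largest rise and fall. Closest to *Tgfbr1* among 19937 genes were *Plau*, the urokinase plasminogen activator, *Ptgfrn* and *Enc1*, with root mean square differences of 0.045, 0.063 and 0.069 log2 units. *Plau* read 11.22, 11.36 and 11.23 with rGDF11, against 9.86, 9.89 and 9.81 with RANKL alone. Closest to *Acvrl1* were *Spsb2*, *Gadd45b*, a stress-induced gene, and *Pdia6*, a protein disulfide isomerase, at 0.029, 0.036 and 0.037. With 6 arrays in 2 groups, this likeness mostly reflects the size and direction of the change.

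Between arrays, the correlation over probe sets, which are not independent of each other, was 0.997 to 0.998 within a group and 0.989 to 0.991 between the groups, and no array stood apart. All 10 macrophage markers examined read above the median of the tested probe sets, and 5 of them fell with rGDF11. Of 10 osteoclast markers 6 rose and 1 fell. *Acvrl1* and *Eng* are also endothelial genes, and 9 of 10 endothelial markers read below that median. Their per-array medians were 5.27 to 5.53 with rGDF11, against 5.35 to 5.47 with RANKL alone, over all 10. *Vwf* read above the median of the tested probe sets, at means of 7.01 with rGDF11 and 7.35 with RANKL alone. *Kdr* (−0.50) and *Vwf* (−0.34) fell, *Pecam1* (0.28) rose, and the other 7 did not pass. Of 8 stromal or osteoblast markers 4 rose, by 0.44 to 0.65, namely *Col1a1*, *Col1a2*, *Pdgfrb* and *Alpl*, with per-array medians of 5.94 to 6.15 with rGDF11, against 5.71 to 5.96 with RANKL alone. By the same rule 7.31% of all tested probe sets rose and 8.64% fell. Among markers of blood lineages, 2 of 4 megakaryocyte genes, 1 of 7 T or NK cell genes and 1 of 5 B cell genes fell. In the same lineages 1 of 8 neutrophil genes and 1 of 3 erythroid genes rose. The part of such cells in the receptor values was not tested.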

How the data were processed

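RNA of 6 BMM samples was measured on Mouse Gene 1.0 ST arrays (Affymetrix). The deposited log2 values were made by the authors with the robust multichip average, which corrects background, normalizes the arrays together and summarises probes. Both the methods and the submitters' processing notes name Transcriptome Analysis Console 3.0, and the methods also name Expression Console. No source used here gives scan batches. Of 35556 probe sets, 21789 carried 1 symbol, 1621 several and 12146 none. Symbols were checked through Entrez identifiers against RefSeq (GRCm38.p6), which held 21698 of the former and changed 0. The 23410 probe sets with a symbol were tested with limma 3.58.1 in R 4.3.3 (lmFit, then eBayes with no intensity trend; two-sided p-values, adjusted by Benjamini-Hochberg). Prior degrees of freedom were 3.67, residual ones 4, and the SD between arrays of a group had a median of 0.11. On simulated arrays for this comparison (23410 probe sets), the fit called 11 of 50 probe sets changed by 1.25-fold, 30 of 50 by 1.5-fold, 46 of 50 by 2-fold and 50 of 50 by 3-fold, and 7 unchanged ones. The simulation changed only 50 probe sets per fold, whereas 3735 passed in the real arrays. With fewer changes the adjusted threshold is stricter, so these rates do not carry over to the real fit. The number of arrays limits the precision. The receptors and lists were chosen with earlier results of these data known, so no list was tested as a set. Named were all receptors, of each pathway list at most 4 genes, those that passed with the largest changes, *Gdf11*, *Mstn*, *Bmpr1b*, *Amhr2* and all Smads, and the 3 genes most like each of 2 receptors. *Bmp1* and *Ltbr* were named besides, since neither has the role of its list. The markers named passed the test and were chosen after their values were seen. Alternatives covered the probe sets tested, a filter on dim ones, normalization, variance model, test, threshold, replicate block, arrays left out and probe sets of a gene.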

Additional observations from a re-analysis of the deposited data

How the results depend on the processing

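Over 168 alternative values of the 10 receptor genes, 157 kept their direction and their side of the threshold. Many of these could not change direction. Other sets of tested probe sets, the intensity trend, t-test, threshold and block leave the log2 fold change as it was, so only the call could differ. Averaging the probe sets of a gene also leaves it unchanged, as each receptor had 1. The 4 calls that were lost, of *Acvr1*, *Acvr1b*, *Bmpr1a* and *Bmpr2*, were lost only at the methods' threshold, which by construction asks for a larger change. There 1 receptor was higher and 1 lower, and 483 and 694 of all tested probe sets. With each array left out, 3 receptors were higher and 3 lower every time. All tested probe sets that were higher then numbered 1129 to 1357 (1129 without the first rGDF11 replicate), the type I median was −0.29 to −0.20 (−0.29 without that replicate) and the type II median −0.016 to 0.052. Among probe sets brighter than the median the type I median was −0.50, since *Acvr1c* drops out, and the type II median 0.011, since *Acvr2b* drops out. The 7 changes of sign concern genes that did not pass. *Tgfbr2* read −0.0091 with array weights, −0.0040 with arrays centred on their median and −0.050 to 0.082 with arrays left out (−0.050 without the second RANKL replicate, −0.011 without the third rGDF11 replicate). *Acvr1c* read −0.016 and *Acvr2b* −0.010 after another quantile normalization, and *Acvr1c* −0.017 to 0.071 with arrays left out. The cause of these changes was not tested. With the replicate number as a block, 1676 probe sets were higher and 1943 lower, and 3 receptors each way. Same-numbered arrays deviated together at correlations of 0.064, 0.34 and −0.00083, and 1 of 3 numbers matched best with itself. With 3 numbers this cannot decide whether same-numbered samples share a preparation, and no source used here says. The adjusted p of *Acvr2a* was 0.060 by limma with the block, against 0.194 without it. The deposited values carry no detection calls for dim probe sets such as *Acvr1c*.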
